A study of Mus musculus with 6 samples.

Results

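Cyclic AMP and cyclic GMP are intracellular messengers that carry hormone signals from the cell surface to kinases, ion channels and transcription factors. Adenylyl cyclases (Adcy genes) make cyclic AMP, and phosphodiesterases (Pde genes) break down 1 or both messengers. Protein kinase A is built of catalytic subunits (Prkaca, Prkacb) and regulatory subunits (Prkar genes). It acts downstream, as do some of the Rap exchange factors (Rapgef genes). A-kinase anchoring proteins (Akap genes) hold the kinase at fixed places in the cell. In juxtaglomerular (JG) cells, which store and secrete renin in the wall of the kidney's afferent arteriole, cyclic AMP acting through protein kinase A is the main known stimulus of renin release and renin gene transcription. The genes described here were taken from the array's annotation by symbol patterns of these 5 families, among probe sets that name 1 gene. They are 58 of the 18193 genes measured: 22 Pde, 15 Akap, 10 Adcy, 6 kinase subunit and 5 Rapgef genes. Pde6g and Pde6h fall outside the patterns and were listed with other genes of the pathway.

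Total RNA of 3 JG samples and 3 samples of renal mesenchymal stromal cells (MSC) was hybridised to 1-colour mouse expression arrays. The JG cells were sorted as positive for yellow fluorescent protein from adult C57BL6 mice carrying Ren1c YFP. The MSC were sorted by the surface antigen CD44 from mice of the same strain and genotype and were then grown to confluence in medium with serum. The labels list that medium for the JG samples too, and whether sorted JG cells were cultured is not stated. Cell type and growth in culture therefore cannot be told apart, and neither can fewer cells of a type and less RNA per cell. Nothing in the labels tells whether replicate samples are different animals or cultures. P-values here measure only the spread between these samples, which may be technical.

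The label of the JG samples was set against marker genes. Of 8 listed JG cell markers 6 were analysed, and Ren1 and Akr1b7 were not. Rgs5 and Rgs2 were called higher in JG and Ptger4 lower, and Aldh1a1, Gja5 and Mcam were not called. Of 28 markers of the nephron tubule 26 were called higher in JG. The summed intensity of the 10 proximal tubule markers ran from 28405 to 36515 in JG samples and from 348 to 628 in MSC samples, and that of 5 macrophage markers from 1332 to 3789 and from 88.3 to 327. Of the macrophage markers C1qb, Csf1r and Laptm5 were called higher, and Adgre1 and Cd68 were not called. The sum of 6 endothelial markers, 4 of them called higher, ran from 598 to 823 in JG and from 52.7 to 56.7 in MSC. None of these 21 markers lay below 16 in all JG samples. Of 8 MSC markers 3, among them Cd44, were lower in JG, while Thy1 and Nt5e were higher. Of 5 markers of dividing cells 4 were called lower in JG, and their sum ran from 367 to 669 in JG and from 1883 to 2521 in MSC. The part of tubule, endothelial or macrophage RNA and of cell division in the differences below was not tested. Across genes, the array of JG sample 1 correlated at 0.807 and 0.887 with JG samples 2 and 3 and at 0.806 to 0.814 with the MSC arrays. JG sample 2 correlated at 0.687 to 0.701 with MSC and JG sample 3 at 0.769 to 0.782, so JG sample 1 was the JG sample nearest to MSC. The MSC arrays correlated at 0.971 to 0.975 with each other.

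Values are linear intensities of a gene's brightest probe set. Each group mean stands with its SD (n = 3). The log2 difference subtracts the MSC mean of log2(intensity + 16) from the JG mean and stands with its SE, and a gene is called where its limma p, adjusted by Benjamini-Hochberg over all 18193 genes, lies under 0.05. The added 16 damps noise at the dim end and understates the change of a gene whose dimmer group lies near or under 16. Intensities of different genes come from different probes and were not compared.

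In JG samples 3 of the 58 genes were called higher than in MSC and 8 lower. The 3 were the cyclic GMP phosphodiesterase gene Pde9a, the Rap exchange factor gene Rapgef3 and the cyclase gene Adcy9. The 8 were the phosphodiesterase genes Pde8b, Pde5a and Pde4b, Pde6d, the anchoring protein genes Akap7, Akap12 and Akap2, and the regulatory subunit gene Prkar2b. These 11 calls are 19.0% of the members, beside 15.3% of all genes tested, 7.70% higher and 7.63% lower. After each array was centred on its median 1 member was called higher and 8 lower, beside 1388 and 1721 of all 18193 genes. The median difference was 0.17 over the members and 0.07 over all genes. The groups did not overlap for 25 members, 14 higher and 11 lower in JG, which is 43.1% beside 38.7% of all genes (20.2% higher and 18.5% lower). JG sample 1 was the JG sample nearest to MSC. With it left out, 21 members were called, 10 higher and 11 lower, which is 36.2% beside 28.5% of all genes in that fit (14.0% higher and 14.5% lower). The 11 genes above were among them. Leaving out the JG sample nearest to MSC favours more calls by that choice, so the calls it adds, here and below, are no separate support. Without MSC sample 1, 2 or 3 the count was 2, 3 or 2, beside 1240, 1152 or 1139 of all genes. Without JG sample 2 or 3 it was 7 or 6, beside 2826 or 1936 of all genes. With all samples 2790 of all genes were called. Pde9a and Pde4b were called in all 6 fits with a sample left out. With 1 in place of the added 16, Adcy9, Rapgef3, Pde6d, Akap2, Akap7 and Akap12 were not called (adjusted p from 0.0553 to 0.101), and with 64 Prkar2b was not (0.0536).

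**Figure D1:**
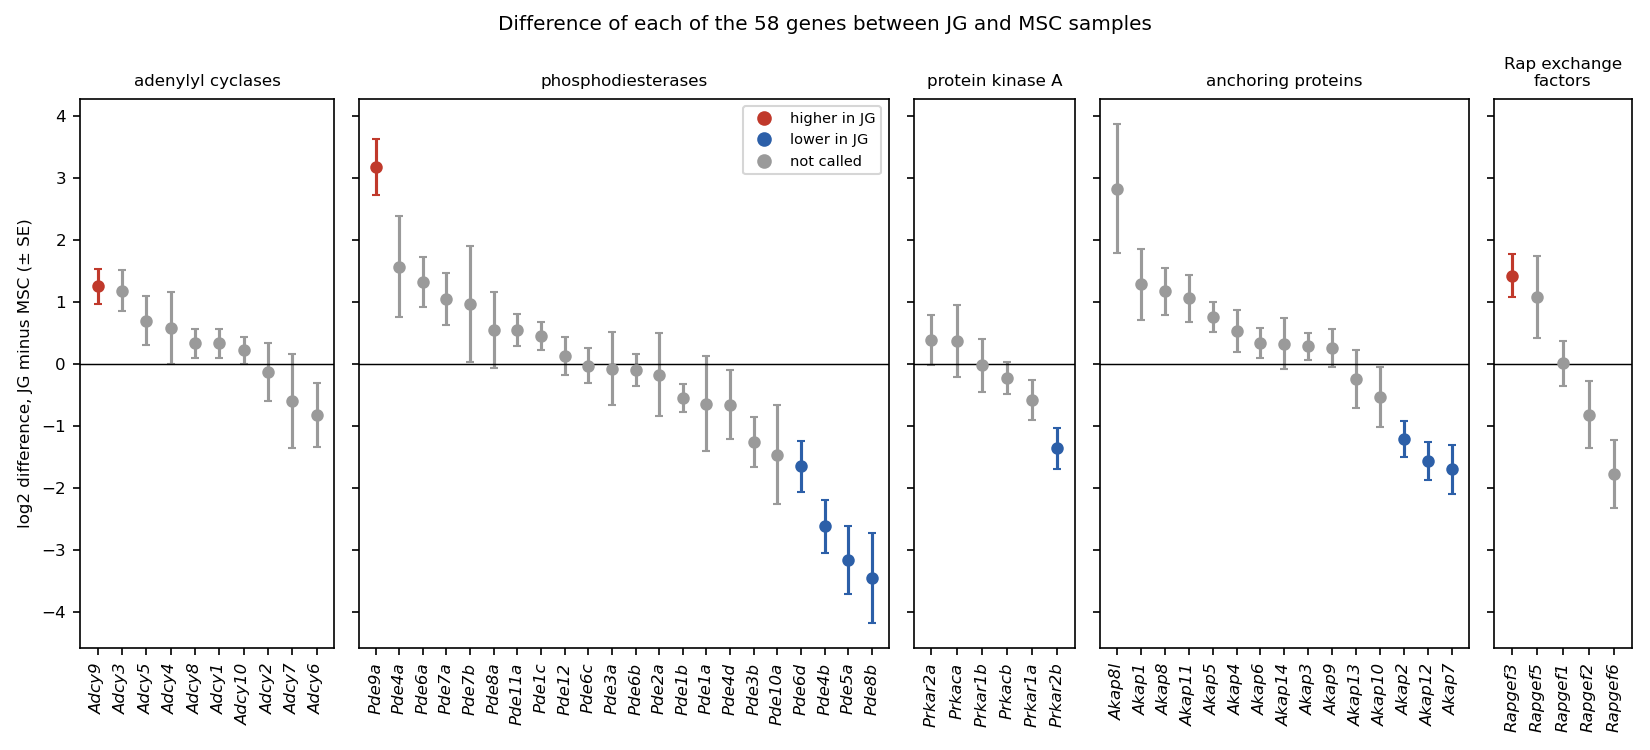
Log2 difference, JG minus MSC, of each of the 58 genes in 5 families, with bars of ± SE (n = 3 per group); red marks genes called higher in JG, blue genes called lower, grey genes not called. The calls lie at both ends of the phosphodiesterase panel, from Pde9a at 3.17 to Pde8b at -3.46, and the kinase subunits other than Prkar2b lie between -0.59 and 0.38.

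Cyclic AMP reaches genes through the transcription factor CREB, which binds the cyclic AMP response element TGACGTCA, and some genes of the pathway carry that element themselves. The 250 bases before each RefSeq start (GRCm38.p6) were searched on both strands for TGACGTCA, for its first 6 letters TGACGT and for the 5-letter core TGACG, each of the shorter ones lying inside the longer. Of the 58 genes 48 had such a window, 92 windows in all. The called genes Pde9a, Akap12 and Akap2 had none and were not searched. TGACGTCA was in 1 of the 92 windows (1.09%), beside 1.55% of 32851 windows in the whole table, TGACGT in 7 (7.61%, beside 6.47%) and TGACG in 15 (16.3%, beside 17.8%). The 4 windows below are shown because they hold the full element, in Prkar1a, or its 6 letters in a called gene, in Adcy9, Rapgef3 and Pde4b. Capitals mark the match. It is a description of the letters and no evidence of a site in use.
Prkar1a, chr11:109650699-109650948, + strand: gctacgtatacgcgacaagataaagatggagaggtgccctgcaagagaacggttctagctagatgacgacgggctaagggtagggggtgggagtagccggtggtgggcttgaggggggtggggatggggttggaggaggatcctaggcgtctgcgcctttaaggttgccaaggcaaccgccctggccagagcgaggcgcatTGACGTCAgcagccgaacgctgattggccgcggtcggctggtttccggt
Adcy9, chr16:4420499-4420748, - strand: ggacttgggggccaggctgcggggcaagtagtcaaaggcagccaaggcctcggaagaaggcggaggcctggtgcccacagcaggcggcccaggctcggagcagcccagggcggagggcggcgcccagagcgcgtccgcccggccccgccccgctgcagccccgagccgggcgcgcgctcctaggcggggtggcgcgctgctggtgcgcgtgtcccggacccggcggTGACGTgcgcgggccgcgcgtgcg
Rapgef3, chr15:97767667-97767916, - strand: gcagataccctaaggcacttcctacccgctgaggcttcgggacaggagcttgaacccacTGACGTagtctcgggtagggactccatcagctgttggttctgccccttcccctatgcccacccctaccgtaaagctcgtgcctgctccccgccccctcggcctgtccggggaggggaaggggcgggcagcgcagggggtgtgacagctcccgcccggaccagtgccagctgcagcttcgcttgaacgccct
Pde4b, chr4:102421305-102421554, + strand: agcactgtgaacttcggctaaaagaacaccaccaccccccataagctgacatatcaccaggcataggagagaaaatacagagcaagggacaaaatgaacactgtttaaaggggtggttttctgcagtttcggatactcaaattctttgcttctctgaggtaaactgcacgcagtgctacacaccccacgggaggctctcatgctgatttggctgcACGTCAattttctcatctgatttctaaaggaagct
The match begins 49, 24, 191 and 35 bases before the start in the order shown, and in Pde4b it reads on the opposite strand. Prkar1a has 6 such windows and Pde4b has 4, of which the printed one of each holds the match, while Adcy9 and Rapgef3 have 1 window each. The genes with a match went in different directions: Adcy9 and Rapgef3 rose in JG, Pde4b fell, and Prkar1a was not called. The 6 letters were also found before Akap11, Pde4a and Rapgef6, which were not called.

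Among the enzymes that make cyclic AMP, 1 of 10 cyclases was called (10%, beside 15.3% of all genes). Adcy9, a widely expressed membrane cyclase with little response to forskolin, had 131, 236 and 205 in JG samples 1 to 3, against 73.4, 60.4 and 74.2 in MSC samples 1 to 3. Every JG sample lay above every MSC sample, and the JG mean was 191 ± 53.9, against 69.3 ± 7.75 in MSC (1.25 ± 0.28, adjusted p = 0.0321). This call rests on 1 of 4 probe sets, since the others differed by -0.55, -0.03 and 0.51 and were not called. It was lost without any 1 sample other than JG sample 1, with adjusted p-values from 0.0529 to 0.128, and its adjusted p was 0.0505 after median centring and 0.379 with the mean of its probe sets.

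Adcy3, a cyclase stimulated through G proteins and best known from olfactory cilia, had 555, 833 and 932 in JG, against 457, 294 and 256 in MSC. The groups did not overlap, and the gene was not called (1.18 ± 0.33, adjusted p = 0.0600), though without JG sample 1 it was (1.39, adjusted p = 0.0258). Adcy3 was not called without any other sample (adjusted p up to 0.206). Its probe sets disagreed: another one, at 22.4, 28.9 and 12.9 in JG against 73.3, 54.5 and 83.2 in MSC, was called lower (-1.22, adjusted p = 0.0367 over all probe sets).

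Adcy5 and Adcy6 are the cyclases inhibited by calcium, and in JG cells they are the ones tied to the unusual inhibition of renin release by calcium. Adcy5 had 45.0, 115 and 57.6 in JG and 59.1, 24.6 and 29.7 in MSC (0.69 ± 0.39, adjusted p = 0.279). Adcy6 had 262, 57.4 and 187 in JG and 265, 225 and 330.0 in MSC (-0.83 ± 0.51, adjusted p = 0.315). In both genes the groups overlapped. Ratios of 2 genes within arrays, here and below, are differences of log2(intensity + 16), so the added 16 pulls the ratio of a dim gene toward 0. The ratio of Adcy5 to Adcy6 was -2.19, 0.84 and -1.47 in JG and -1.90, -2.57 and -2.92 in MSC, a change of 1.53 (two-sided exact permutation p = 0.20). The ratio of Adcy9 to Adcy6 was -0.91, 1.78 and 0.12 in JG and -1.65, -1.66 and -1.94 in MSC, so that the groups did not overlap. That change of 2.08 had an exact permutation p = 0.10, the smallest that 3 against 3 samples can give, and 0.233 when adjusted over the 7 ratios computed here.

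Adcy7, a cyclase of leukocytes and other cells that is stimulated by G protein beta-gamma subunits, spread from 26.4 in JG sample 1 to 355 in JG sample 3, on both sides of the 136 to 178 in MSC (-0.60 ± 0.75, adjusted p = 0.624). The remaining 5 cyclases (Adcy1, Adcy2, Adcy4, Adcy8 and Adcy10) had differences between -0.14 and 0.57 and were not called, and Adcy8 and the soluble cyclase Adcy10 lay below 16 on all arrays.

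**Figure D2:**
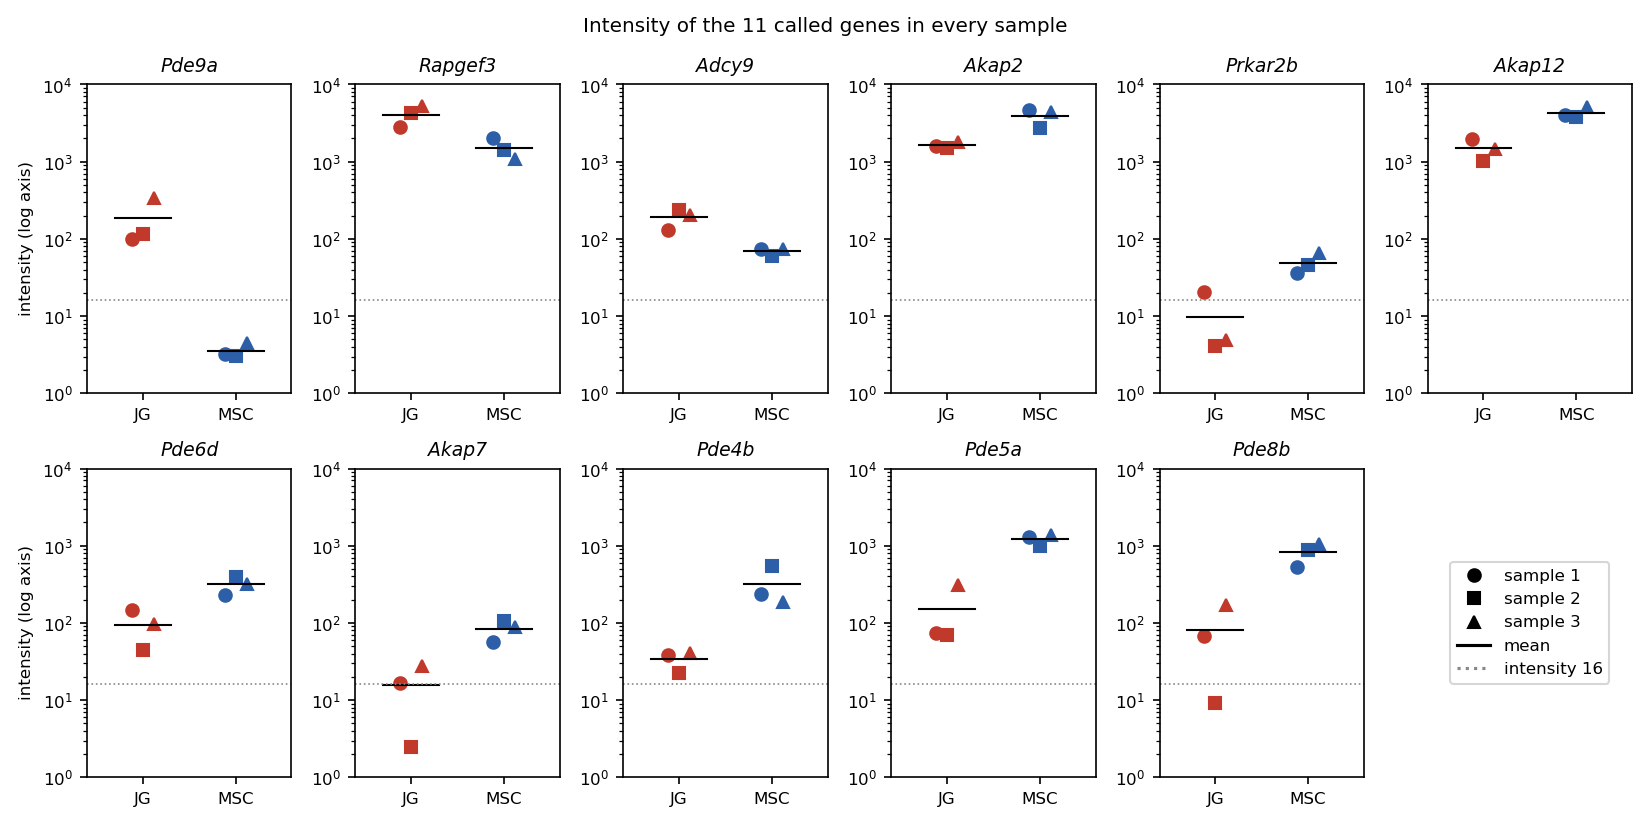
Intensity on a log axis of the 11 called genes in each of the 3 JG and 3 MSC samples, with the group mean as a line and the added 16 dotted, ordered by difference. No gene shown has overlapping groups. Pde9a lies at 3.05 to 4.48 in MSC, and JG sample 2 lies under 16 for Akap7, Pde8b and Prkar2b.

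The phosphodiesterases, the largest of the 5 families, held the widest differences, and 5 of 22 were called (22.7%, beside 15.3% of all genes). Pde9a and Pde5a encode enzymes that hydrolyse cyclic GMP and not cyclic AMP, and they went in opposite directions. Pde9a, whose product has a very high affinity for cyclic GMP, had 100.3, 116 and 340.1 in JG samples 1 to 3, against 3.20, 3.05 and 4.48 in MSC. All JG samples lay far above MSC, at means of 186 ± 134 and 3.58 ± 0.786 (3.17 ± 0.45, adjusted p = 0.00657), and since MSC lay under 16 the log2 difference understates the size. It is read by 1 probe set, and leaving out any 1 sample gave adjusted p-values of 0.00436 to 0.0388.

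Pde5a, the target of sildenafil and an enzyme of vascular smooth muscle, had 74.5, 70.1 and 312 in JG, against 1292, 1003 and 1360.2 in MSC. JG sample 3 was the highest JG sample and still lay below the lowest MSC sample (-3.16 ± 0.55, adjusted p = 0.0133). The summed intensity of 6 vascular smooth muscle markers ran from 2014 to 2224 in JG and from 15458 to 19952 in MSC. Of these markers 4 were called lower, Des was not called, and Myh11 was called higher in JG (2.64 ± 0.54, adjusted p = 0.0238). The part of smooth muscle RNA in the Pde5a difference was not tested. Of the other Pde5a probe sets 1 was called in the same direction (-2.71, adjusted p = 0.00146 over all probe sets) and 1 was not (-0.59). The call was lost without MSC sample 1, 2 or 3 (adjusted p = 0.0620, 0.0542 and 0.0646). The photoreceptor enzymes of the cyclic GMP group were not called: Pde6a had 81.2, 49.6 and 19.1 in JG and 9.62, 6.24 and 9.55 in MSC (1.31 ± 0.40, adjusted p = 0.0747), and Pde6b and Pde6c lay under 16 on all arrays.

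Of the 7 phosphodiesterases selective for cyclic AMP, Pde8b and Pde4b fell in JG (28.6%, beside 15.3% of all genes) and the others were not called. Pde8b, an enzyme of high affinity that is insensitive to the common inhibitor IBMX, had 68.8, 9.22 and 169 in JG, against 534, 884 and 1043 in MSC. The groups were separate (-3.46 ± 0.72, adjusted p = 0.0255), and its other probe set, at 7.09 to 18.4 in JG and 175 to 247 in MSC, was also called lower (-2.90). Without MSC sample 1, 2 or 3 the adjusted p was 0.0699, 0.101 and 0.106. Pde4b, an enzyme inhibited by rolipram, had 38.0, 22.7 and 41.4 in JG, against 234, 546 and 185 in MSC. Its means were 34.0 ± 9.94 and 322 ± 196 (-2.63 ± 0.43, adjusted p = 0.0112), and it stayed called with any 1 sample left out (adjusted p from 0.0154 to 0.0433). Of the 5 other Pde4b probe sets none was called; the 2 of them with a level above 50 in all MSC samples differed by -1.27 and -1.95, and the other 3 lay below 16 on all arrays.

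The sister genes Pde4d and Pde4a did not share the call of Pde4b. Pde4d had 166, 33.2 and 84.0 in JG and 121, 228 and 89.8 in MSC (-0.66 ± 0.55, adjusted p = 0.456). With the mean of its 2 probe sets the difference was 0.45, and the ratio below rests on the brightest one. The ratio of Pde4b to Pde4d within arrays, on the same log2 scale, was -1.75, -0.35 and -0.80 in JG, against 0.87, 1.20 and 0.93 in MSC. Every JG array thus lay below every MSC array, a change of -1.97 with an exact permutation p = 0.10 (0.233 when adjusted over the 7 ratios). Pde4a had 34.1, 502 and 228 in JG and 57.7, 40.7 and 43.0 in MSC, so JG sample 1 lay below MSC and the other JG samples above it (1.56 ± 0.81, adjusted p = 0.243). Without JG sample 1 it was called (2.50, adjusted p = 0.00858), and without any other sample it was not (adjusted p up to 0.481). Pde7a, selective for cyclic AMP and insensitive to rolipram, did not overlap between groups, at 326, 302 and 224 in JG and 214, 64.5 and 145 in MSC, without reaching a call (1.04 ± 0.42, adjusted p = 0.150). With the mean of its 7 probe sets the difference was -0.11. Pde8a had 519, 103 and 531 in JG and 189.9, 218 and 218 in MSC (0.54 ± 0.61, adjusted p = 0.583).

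None of the 8 phosphodiesterases that act on both messengers was called, beside 15.3% of all genes. Pde3b, inhibited by cyclic GMP and tied in JG cells to the rise of cyclic AMP under nitric oxide, had 508, 292 and 287 in JG and 718, 1397 and 638 in MSC. The groups did not overlap (-1.26 ± 0.40, adjusted p = 0.0820), and the gene was called without JG sample 1 (-1.52, adjusted p = 0.0377). Pde3b was not called without any other sample (adjusted p up to 0.216). Its relative Pde3a had 213, 1123 and 368 in JG and 549.6, 483 and 403 in MSC, with the highest and the lowest value both in JG (-0.08 ± 0.58, adjusted p = 0.939). A further probe set of Pde3a, at 42.0, 27.5 and 104 in JG and 301, 356 and 210.4 in MSC, was called lower (-2.15, adjusted p = 0.0264 over all probe sets), so this gene has no single answer.

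Pde1a, stimulated by calcium and calmodulin, had 307, 19.8 and 147 in JG and 174 to 179 in MSC (-0.65 ± 0.77, adjusted p = 0.605). Pde1c, of the same subfamily and studied as a link between calcium and cyclic AMP in JG cells, had 12.9, 18.1 and 12.8 in JG and 8.05, 8.24 and 3.62 in MSC, with no call (0.44 ± 0.23, adjusted p = 0.237). The ratio of Pde3a to Pde3b changed by 1.18 with overlapping groups (exact permutation p = 0.30). That of Pde1a to Pde1c is not given, since Pde1c lay under 16 in all MSC samples. Pde2a, stimulated by cyclic GMP, had 59.4, 79.9 and 434 in JG and 146 to 159.7 in MSC, and Pde10a 133, 79.5 and 3.10 in JG and 230.2, 208 and 89.5 in MSC. Pde1b had 27.4, 21.5 and 20.9 in JG and 33.2, 46.0 and 46.7 in MSC, and Pde11a 19.9, 8.60 and 20.1 in JG and 4.29, 7.73 and 5.59 in MSC; neither pair of groups overlapped and neither gene was called (-0.56 ± 0.23 and 0.54 ± 0.25, adjusted p = 0.153 and 0.201). Pde2a and Pde10a varied more among JG samples than between groups (-0.18 ± 0.67 and -1.47 ± 0.80, adjusted p = 0.880 and 0.259).

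Pde6d carries the name of the family and encodes a carrier of prenylated proteins without hydrolase activity. It had 145, 44.2 and 95.9 in JG, against 233, 395 and 318 in MSC, and was called lower near the threshold (-1.66 ± 0.42, adjusted p = 0.0449). It was called with any single sample left out only where that sample was JG sample 1 (adjusted p = 0.0165), the other 5 fits giving 0.0552 to 0.157, and quantile normalization gave 0.0502. Pde12, a mitochondrial enzyme acting on other substrates, averaged 426 ± 109 in JG and 393 ± 102 in MSC (0.12 ± 0.31, adjusted p = 0.829).

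**Figure D3:**
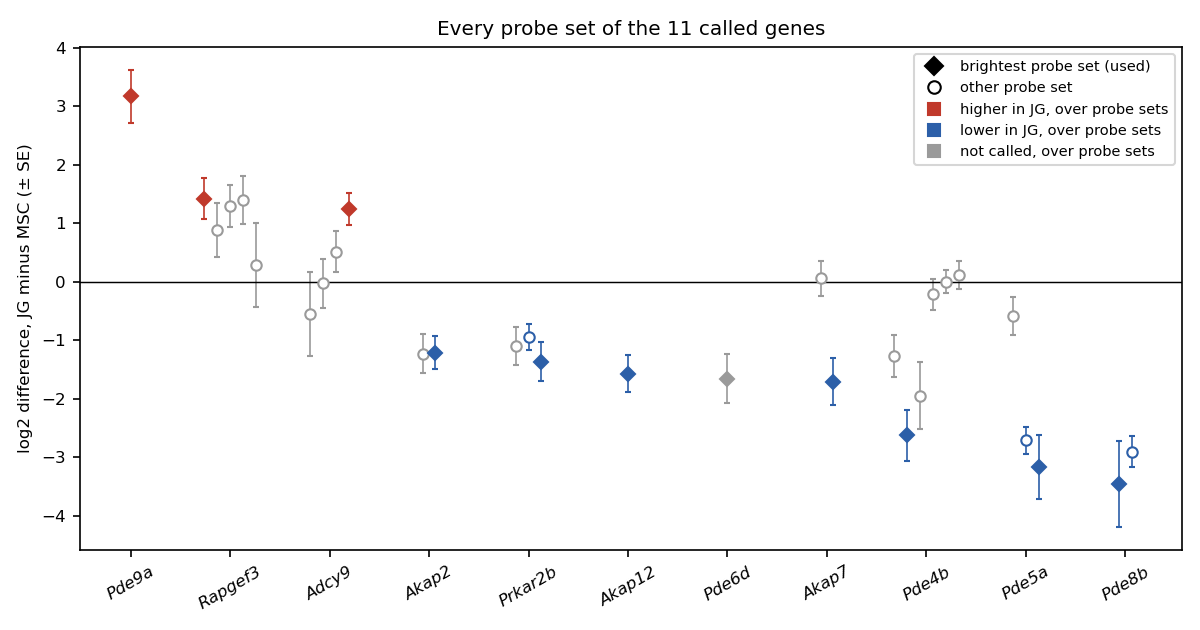
Log2 difference, JG minus MSC, ± SE of every probe set of the 11 called genes; diamonds are the brightest probe set, open circles the others, and colours give the call adjusted over all probe sets. Pde5a, Pde8b and Prkar2b have another probe set called in the same direction, Adcy9 and Akap7 have others near 0, and Pde6d, grey here, is called over genes and not over probe sets.

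The core of protein kinase A was not called in either direction, with 1 regulatory subunit as the exception (1 of 6 genes, 16.7%, beside 15.3% of all genes). Prkaca, the main catalytic subunit, had 438, 1069.8 and 1700.3 in JG and 423, 789 and 1121 in MSC, a spread within each group as wide as the difference (0.36 ± 0.58, adjusted p = 0.713). Its other probe set gave -1.23 and was not called. Prkacb, the other catalytic subunit, had 596 ± 66.7 in JG and 713 ± 159 in MSC (-0.23 ± 0.26, adjusted p = 0.585). Prkar1a, the type I regulatory subunit whose promoter is printed above, had 2957, 1403 and 2045 in JG and 3494, 2975 and 2818 in MSC. JG sample 1 fell among the MSC values and the other JG samples below them (-0.59 ± 0.32, adjusted p = 0.264).

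Prkar2b, the type II regulatory subunit known from fat, brain and endocrine cells, had 20.4, 4.16 and 4.87 in JG, against 36.6, 45.4 and 65.1 in MSC. The groups were separate (-1.37 ± 0.33, adjusted p = 0.0398), 2 of the 3 JG values lay under 16, and its other probe sets differed by -0.94, called, and -1.09, not called. Without JG sample 1 its adjusted p was 0.0106, and it was not called without any other sample (0.0774 to 0.153). Prkar2a, the widely expressed type II subunit, had 1034, 2893 and 2154 in JG and 1279.9, 1492 and 1518 in MSC (0.38 ± 0.40, adjusted p = 0.558). With the mean of its 4 probe sets that difference was -0.40. Since Prkar2b lay under 16 in JG samples 2 and 3, where the added 16 makes up most of its value, its ratio to Prkar2a is not given. The ratio of Prkacb to Prkaca changed by -0.59 with overlapping groups (exact permutation p = 0.50), and Prkar1b had 81.0 ± 44.4 in JG and 76.0 ± 18.6 in MSC.

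Of 15 anchoring proteins 3 fell in JG and none rose (20%, beside 15.3% of all genes). With JG sample 1 left out, 4 were called higher and 3 lower (beside 28.5% of all genes in that fit). Akap12 (gravin), a large membrane scaffold that binds kinase A, kinase C and the beta-2 adrenergic receptor, had 1977, 1034 and 1455 in JG, against 4074, 3778 and 5162 in MSC. The groups were well apart at means of 1489 ± 472 and 4338 ± 729 (-1.57 ± 0.31, adjusted p = 0.0210). Akap2, which the RefSeq table lists under the joint gene Pakap, had 1616, 1525 and 1818 in JG, against 4733, 2737 and 4383 in MSC, again separate (-1.21 ± 0.29, adjusted p = 0.0372). Its other probe set moved by the same amount (-1.23, adjusted p = 0.0597 over all probe sets). Akap7, a small anchor of the plasma membrane and of the heart's calcium handling, had 16.8, 2.51 and 28.0 in JG, against 55.9, 107 and 89.1 in MSC (-1.70 ± 0.40, adjusted p = 0.0358), and its other probe set, under 17 on all arrays, differed by 0.06.

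All 3 calls depended on single samples and, as given above, on the added constant. Akap12 lost its call without JG sample 3 or any MSC sample (adjusted p from 0.0594 to 0.0963). Akap2 lost it without JG sample 2 or 3 (0.0671 and 0.0733) or MSC sample 1 or 3 (0.135 and 0.148). Akap7 lost it without any MSC sample (0.0719 to 0.134).

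Among the anchors not called, the groups did not overlap for Akap3, Akap5, Akap8, Akap8l and Akap11, all higher in JG. Over all 15 anchors the groups did not overlap for 5 higher and 3 lower in JG, beside 20.2% and 18.5% of all genes. Akap8, a nuclear anchor that binds chromatin, had 727, 1162 and 1374 in JG and 693, 337 and 413 in MSC (1.17 ± 0.38, adjusted p = 0.0887, and 0.0355 without JG sample 1). Its relative Akap8l had 48.6, 947 and 943 in JG and 35.3, 41.9 and 40.7 in MSC. JG sample 1 was thus at the MSC level and the other JG samples far above it, and the gene was not called with all samples (2.82 ± 1.04, adjusted p = 0.122). Without JG sample 1 the difference was 4.12 (adjusted p = 0.000444). Akap11, an anchor that also binds glycogen synthase kinase 3, had 317, 784 and 454 in JG and 276, 188 and 220.0 in MSC (1.05 ± 0.37, adjusted p = 0.111, and 0.0330 without JG sample 1). Akap8, Akap8l and Akap11 were not called without any other sample (adjusted p up to 0.258, 0.276 and 0.292). Akap1, on the outer mitochondrial membrane, had 323, 985 and 325 in JG and 147, 348 and 119 in MSC, overlapping through MSC sample 2 (1.28 ± 0.57, adjusted p = 0.182). Akap13, which also activates RhoA, had 325 ± 136 in JG and 401 ± 209.5 in MSC (-0.25 ± 0.47, adjusted p = 0.752). The other uncalled anchors (Akap3, Akap4, Akap5, Akap6, Akap9, Akap10 and Akap14) differed by -0.54 to 0.75. Of these Akap5 was called without JG sample 1 (0.88, adjusted p = 0.0394). Another probe set of Akap10, at 1.00 to 5.69 in JG and 19.8 to 27.6 in MSC, was called lower (-1.11, adjusted p = 0.0271 over all probe sets). The 5 other probe sets of Akap9 differed by -1.34 to -0.38, none called, against 0.25 for the brightest.

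Of the Rap exchange factors measured here, the one known as a receptor for cyclic AMP is Rapgef3 (Epac1). Rapgef3 couples cyclic AMP to the small GTPase Rap1 independently of kinase A. It had 2826, 4226 and 5209 in JG, against 2030.0, 1425 and 1099 in MSC. All JG samples lay above all MSC samples, at means of 4087 ± 1198 and 1518 ± 472 (1.42 ± 0.35, adjusted p = 0.0421). A pair of its 4 other probe sets gave differences of 1.30 and 1.40 at similar intensities (adjusted p = 0.0653 and 0.0740 over all probe sets), and the other 2 gave 0.88 and 0.29. Without JG sample 1 its adjusted p was 0.0183, and without JG sample 2 or 3 or any MSC sample it was not called (0.0687 to 0.155). The adjusted p was 0.0531 after median centring and 0.0551 after quantile normalization. Rapgef4 was not analysed here, so the planned ratio of the 2 Epac genes was not computed.

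Rapgef6, a Rap exchange factor of cell junctions, had 274, 60.7 and 156 in JG and 842, 384 and 436 in MSC. The groups did not overlap and it was not called (-1.78 ± 0.55, adjusted p = 0.0806). Its 4 other probe sets differed by -0.84 to -2.01, none called. It was called when JG sample 1 was left out (-2.23, adjusted p = 0.0263), as were Rapgef2 (-1.39, adjusted p = 0.0290) and Rapgef5 (1.82, adjusted p = 0.0151). They were not called without any other sample (adjusted p up to 0.226 for Rapgef6, 0.653 for Rapgef2 and 0.603 for Rapgef5). With all samples Rapgef5 had 19.9, 184 and 129 in JG and 28.9, 50.8 and 21.4 in MSC (adjusted p = 0.316), and Rapgef2 had 266, 51.8 and 94.7 in JG and 268, 178 and 196 in MSC (adjusted p = 0.339). In both, JG sample 1 lay with MSC. Rapgef1 had 877 ± 339.9 in JG and 839 ± 167 in MSC (0.00 ± 0.37, adjusted p = 0.997).

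**Figure D4:**
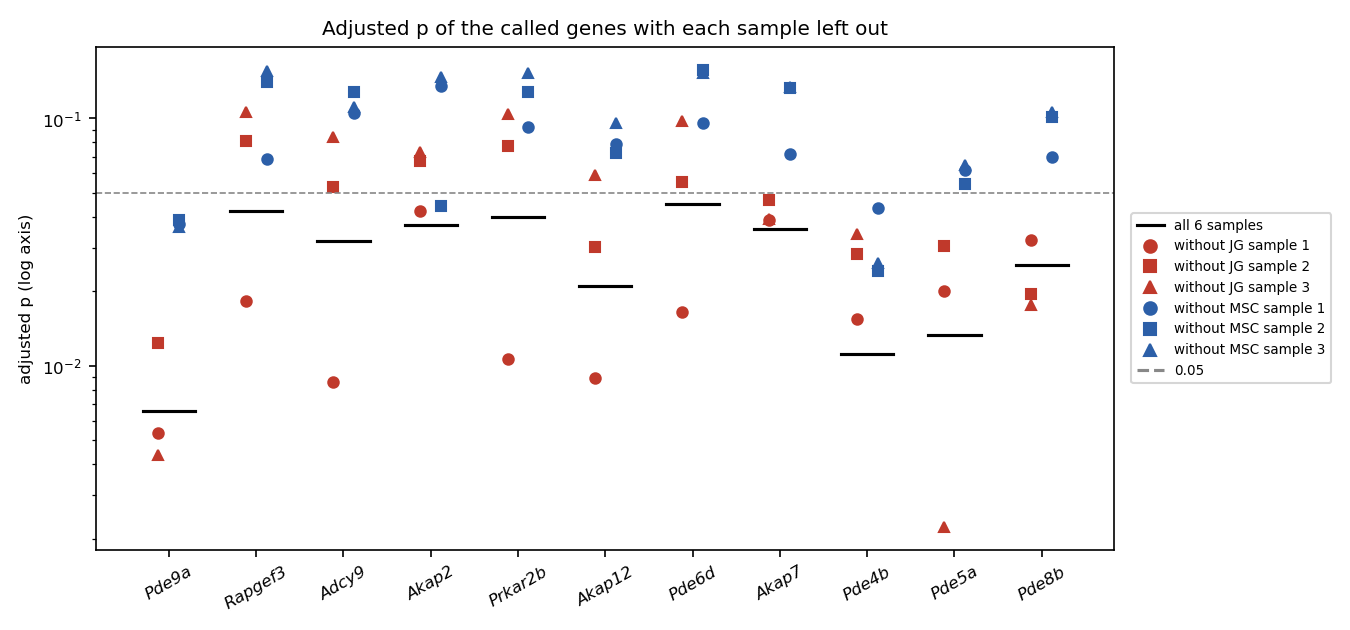
Adjusted p on a log axis of the 11 called genes with all 6 samples (black line) and with each JG (red) or MSC (blue) sample left out; the dashed line is 0.05. Pde9a and Pde4b stay below the line in all 6 fits, and Rapgef3, Adcy9, Prkar2b and Pde6d stay below it only without JG sample 1.

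Around these families, 79 of 88 listed genes of the pathway were measured outside them, and 6 were called higher in JG and 7 lower. That is 16.5%, beside 15.3% of all genes. After quantile normalization 6 were higher and 4 lower, beside 1513 and 1185 of all genes. The count was 7, 7 and 6 without MSC samples 1 to 3, beside 1240, 1152 and 1139 of all genes. Without JG sample 1 it was 20 of 79, beside 28.5% of all genes. The lists were described by their counts alone.

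Of 2 cyclic GMP-dependent kinases 1 was called (50%, beside 15.3% of all genes). Prkg2, a membrane-bound cyclic GMP-dependent kinase known to restrain renin release, had 65.6, 87.4 and 61.4 in JG, against 445, 385 and 592 in MSC (-2.48 ± 0.27, adjusted p = 0.00216). It was called in all 6 fits with a sample left out. Of 7 guanylyl cyclases and natriuretic peptide receptors 2 were lower (28.6%, beside 15.3% of all genes, 7.63% lower). Npr3, the clearance receptor, had 7.11, 414 and 332 in JG and 3529, 2708 and 3345 in MSC (-4.40 ± 1.09, adjusted p = 0.0431). Gucy1a2, a subunit of the nitric oxide receptor, was lower too (-2.18 ± 0.55, adjusted p = 0.0448). Both calls were lost without JG sample 3 or any MSC sample (adjusted p from 0.0641 to 0.145 for Npr3 and from 0.0650 to 0.155 for Gucy1a2).

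Among receptors that raise cyclic AMP, 2 of 15 rose in JG and 1 fell (20% called, beside 15.3% of all genes). Pth1r, the parathyroid hormone receptor, had 1504, 1033 and 1372 in JG, against 42.3, 46.4 and 31.6 in MSC (4.55 ± 0.26, adjusted p = 0.000178). Gcgr, the glucagon receptor, had 118, 57.7 and 276 in JG and 1.20 to 3.81 in MSC (2.98 ± 0.50, adjusted p = 0.0120). Pth1r is also expressed in the proximal tubule, whose markers were 28405 to 36515 in sum in JG. Ptger4, a prostaglandin E2 receptor of JG cells, had 17.1, 73.4 and 154 in JG and 309, 427 and 362 in MSC (-2.25 ± 0.59, adjusted p = 0.0494). It was not called without JG sample 2 or any MSC sample (0.0872 to 0.161), and Gcgr was not called without any MSC sample (0.0540 to 0.0594). Of 7 alpha subunits 1 was called (14.3%, beside 15.3% of all genes). Gnai2, which inhibits cyclases, fell in JG to 615, 255 and 373, against 2146, 2037 and 2295 in MSC (-2.42 ± 0.35, adjusted p = 0.00670). It kept its call in all 6 fits with a sample left out.

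Downstream, none of 7 CREB family and coactivator genes was called by limma, and none had an unadjusted p under 0.05, beside 31.8% of all genes. The largest difference among them was that of Crtc2 (-1.15 ± 0.62, adjusted p = 0.259). Of 9 genes known to be induced through CREB 3 were higher in JG and none lower (33.3%, beside 15.3% of all genes, 7.70% higher). Pck1 and Ppargc1a, which act in gluconeogenesis and mitochondrial biogenesis and are also proximal tubule genes, differed by 6.35 ± 0.50 and 3.74 ± 0.40 (adjusted p = 0.000653 and 0.00203). Sik1, a kinase that feeds back on CREB coactivators, differed by 1.41 ± 0.32 (adjusted p = 0.0321) and was not called without any 1 sample other than JG sample 1 (0.0501 to 0.126). Rap2b was lower in JG (-3.60 ± 0.57, adjusted p = 0.00965, and 0.0506 without MSC sample 3). Of anchors outside the Akap series Sphkap was higher (2.19 ± 0.28, adjusted p = 0.00472) and Wasf1 lower (-2.73 ± 0.65, adjusted p = 0.0390). The Wasf1 call was lost without JG sample 3 or any MSC sample (0.0559 to 0.147).

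No gene was called in the lists of kinase inhibitor peptides, small subunits of the retinal phosphodiesterase, cyclic nucleotide gated channels with Popeye proteins, and cyclic nucleotide exporters. At an unadjusted p under 0.05 these lists held 2 of 3, 1 of 2, 2 of 8 and 0 of 2 genes, beside 31.8% of all genes. The largest differences were those of Pkia (-1.36 ± 0.45, adjusted p = 0.0914), Pde6h (1.02 ± 0.33, adjusted p = 0.0875), Bves (-1.20 ± 0.40, adjusted p = 0.0945) and Abcc5 (0.92 ± 0.52, adjusted p = 0.281).

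**Figure D5:**
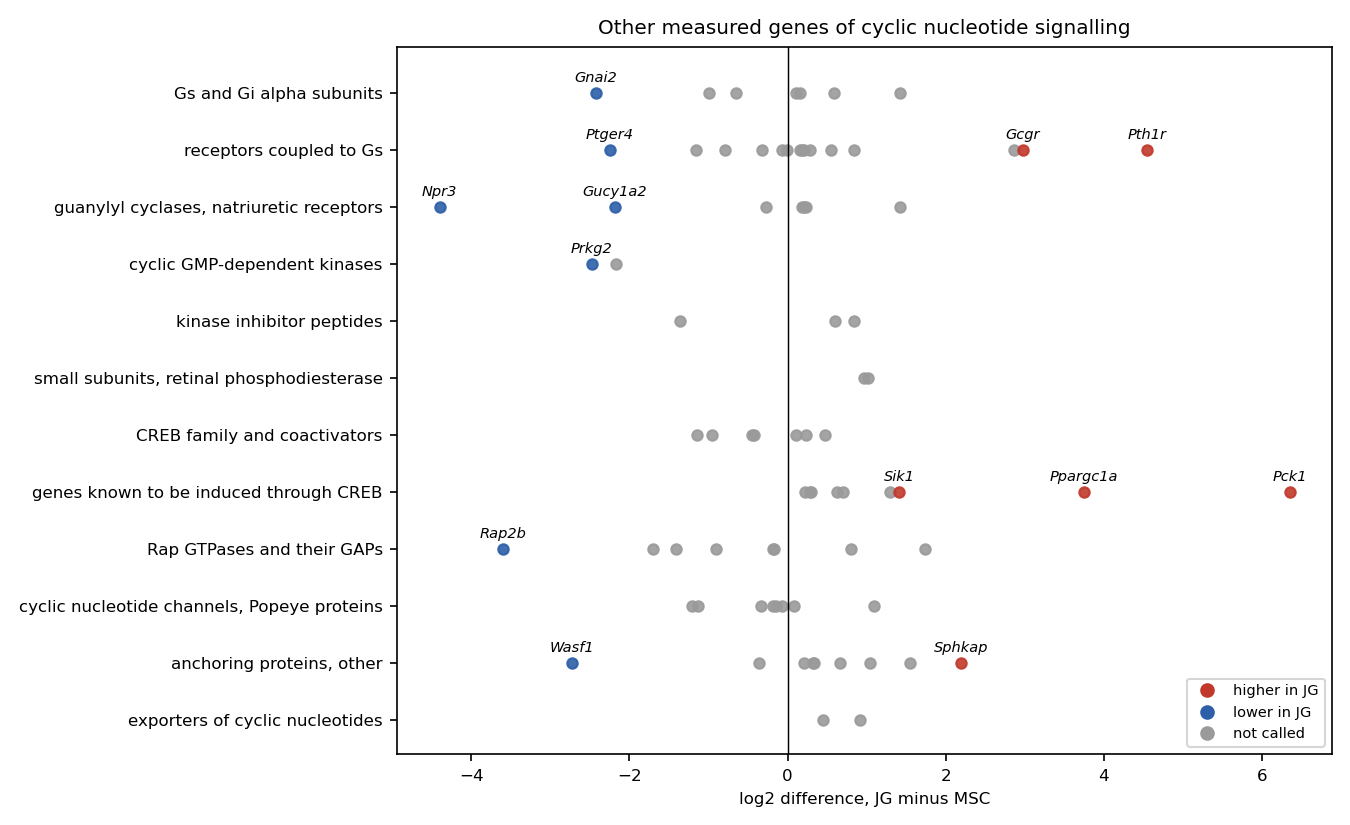
Log2 difference, JG minus MSC, of the 79 other measured pathway genes in 12 lists; red marks genes called higher in JG, blue lower, grey not called, and called genes are named. The 13 calls run from Pck1 at 6.35 to Npr3 at -4.40.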

How the data were processed

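Values were the linear intensities of the table the authors deposited, 1 column per array for 6 arrays and 45037 probe sets. The authors' probe summary and array scaling are not given in the sources used here. The platform annotation named 1 gene for 34945 probe sets, several for 932 and none for 9160, and several and none were left out. Of the gene IDs 34741 matched the RefSeq table (GRCm38.p6), which changed 0 symbols. For each of 18193 genes the probe set with the highest mean log2(intensity + 16) was used. JG and MSC were compared by limma 3.58.1 in R 4.3.3 (lmFit, eBayes), Benjamini-Hochberg over all genes, threshold 0.05. Ratios of 2 genes within arrays were compared by a two-sided exact permutation test. The 58 genes, the lists of pathway and marker genes and the genes named in the text follow symbol patterns and fixed lists, chosen with earlier results of these data known; the text names every called member, the 5 widest uncalled members of a family above the median intensity, the genes of the ratios, genes studied in renin release, and of each other list up to 4 called genes or, with none, the widest, and gives the remaining members for completeness. On simulated data of this design with 200 of 18193 genes changed, 32.7% of genes changed by 2 on the log2 scale and 81% of those changed by 4 were called. The data themselves gave 2790 calls, so the share recovered in them may differ. The number of arrays limits the precision. Scaling, the added constant, filters, probe set choice, weights per array, each sample left out and a replicate block were tried as alternatives.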

Additional observations from a re-analysis of the deposited data

How the results depend on the processing

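The 11 called members kept their direction in each alternative that included them, 18 for 8 genes and 17 for Akap7, Pde9a and Prkar2b, which were left out with the genes under the median, and the number of calls depended on the setting. Members called numbered 6 (4 lower) with 1 added before the log, 22 (11 higher) with array weights, and 1 higher after median centring. The weights were 0.286, 0.284 and 1.89 for JG samples 1 to 3, and 1.58, 2.11 and 1.95 for MSC samples 1 to 3. The JG side of the weighted fit thus rested mainly on JG sample 3. Leaving out 1 sample gave 2 to 21 members called, 1 to 10 higher and 1 to 11 lower. Over all genes, array weights gave 6177 (3208 higher, 2969 lower), and leaving out 1 sample gave 1139 to 5194, 719 to 2551 higher and 411 to 2643 lower. With 1 added, quantile normalization and the mean of probe sets, 2601, 2698 and 3105 of all genes were called. Other pathway genes called numbered 29 with array weights (15 higher, 14 lower) and 20 with the mean of probe sets (14 lower); 4 were lower after quantile normalization or with 1 added, and leaving out 1 sample gave 6 to 20, 4 to 8 higher and 2 to 12 lower.

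Samples of the same number deviated from their group means with correlations of -0.197, -0.009 and -0.008. These values show no positive link by number. With 3 samples per group they cannot tell whether the numbers pair the samples. With the replicate number as a block 5 members were called (1 higher, 4 lower), 1613 of all genes (903 higher, 710 lower) and 8 other pathway genes (3 lower); the adjusted p was 0.0558 for Akap12, 0.0810 for Akap2 and 0.0838 for Akap7.

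Differences were recomputed under the alternatives for 37 members and the named pathway genes, and for the other 21 members without JG sample 1 alone. Of those 21, Prkar1b was then 0.41, Pde2a 0.30 and Pde6c 0.13, each below 0 with all samples. Of the 37 and the pathway genes, uncalled ones changed sign as follows. With the mean of probe sets the difference was 0.21 for Akap13, 0.45 for Pde4d, -0.11 for Pde7a, -0.43 for Prkaca, -0.40 for Prkar2a and -0.13 for Abcc5. Without the probe sets whose ID ends in s or x it was -1.22 for Adcy3, -0.31 for Adcy5, 0.017 for Adcy7 and -1.23 for Prkaca. It was 0.50 for Adcy7 with array weights, 0.15 for Pde3a after quantile normalization and -0.031 for Rapgef1 after median centring. With 1 sample left out it ran from -1.45 to 0.12 for Adcy7, -0.58 to 0.13 for Akap13 (0.053 without JG sample 3), -1.34 to 0.25 for Pde1a, -0.73 to 0.43 for Pde3a (0.056 and 0.022 without JG sample 3 and MSC sample 1), -0.18 to 1.62 for Pde7b, -0.072 to 0.89 for Prkaca (-0.017 without MSC sample 1), and -0.25 to 0.34 for Rapgef1 (-0.079 and -0.14 without JG sample 2 and MSC sample 1). The cause was not tested. The median of all genes was -0.30 where genes under the median intensity were left out, against 0.07.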

Other observations

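The members varied more among the JG samples than among the MSC samples. The SD of log2(intensity + 16) was over 1 for 15 of the 58 members (25.9%) in JG and for 0 in MSC, beside 21.4% and 1.41% of all genes. Pde7b, chosen here after its values were seen, had 209, 7.53 and 2.36 in JG samples 1 to 3 and 8.64, 9.86 and 4.67 in MSC, so that JG sample 1 alone was high (0.96 ± 0.93, adjusted p = 0.521 by limma).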
